A study of Homo sapiens with 12 samples.

Results

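The ATF3 locus was taken as the stretch of chromosome 1 between 212.68 and 212.86 Mb (hg19), which holds the ATF3 gene on the plus strand, with transcription starts near 212.739 and 212.782 Mb, and its flanks. The starts are known here only to the nearest 1 kb, and distances are counted from the rounded positions. Every peak of the 10 ChIP lists that overlapped this window was a member. There were 170 such regions of 1552170 in all lists on chromosomes 1 to 22 and X, of which 56 had a q of 0.05 or less and 114 a higher q. Whole reads at the summit could be recovered from the deposited fold and p for 170 of the 170 regions.

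The title of the series places ATF3 between gains of VPS72 and lipid synthesis, and the lists allow the chromatin of the gene to be set side by side with and without added VPS72. The cells were Huh7, a line from a hepatocellular carcinoma, profiled by chromatin immunoprecipitation followed by sequencing (ChIP). In both conditions the cells carried a FLAG tag knocked in at the 3′ end of the coding region of VPS72, and had been grown out as blasticidin-resistant colonies. The number of colonies behind these libraries is not stated in the sources used here. The VPS72 condition had been infected for 24 h with lenti-VPS72-FLAG virus, and the control for the same time with lenti-HA virus, an empty vector, with 1 library per antibody and condition. The FLAG antibody therefore reads endogenous VPS72 in the control and both endogenous and lentiviral VPS72 in the VPS72 condition. No untagged cells were analysed here, so FLAG signal is described as FLAG and not as VPS72 binding. As every group was 1 library, the conditions are set side by side without a replicate check or a test. All intervals are 95% intervals that cover counting error only.

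ATF3 is a basic leucine zipper factor of the ATF/CREB family that is induced by many stresses, among them amino acid shortage and endoplasmic reticulum stress, and in liver cells by injury. As a homodimer it is known as a repressor, with partners such as JUN it can activate, and it is known to bind the promoter of its own gene. Transcription can begin at an upstream or a downstream promoter. VPS72, also called YL1, is the H2A.Z-binding subunit of the SRCAP and TIP60 complexes, which place and acetylate this histone variant in nucleosomes beside promoters and enhancers. H3K27ac marks active promoters and enhancers, while H3K4me1 is typical of enhancers and of the outer flanks of promoters.

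RefSeq (GRCh38.p14) lists 2 promoter entries for ATF3, and the 250 bases before each start are shown because H2A.Z summits lay 1.19 and 1.49 kb past the upstream start and a control FLAG region at the spacing of the second entry. The upstream entry, chr1:212565157-212565406 on the plus strand of GRCh38, is the gene's first start, and the second, chr1:212614768-212615017, lies 49.6 kb further along. Neither entry belongs to the downstream start of the rule, for which no sequence is shown. Capitals mark matches, on either strand, to the motifs searched.
ATF3 upstream start: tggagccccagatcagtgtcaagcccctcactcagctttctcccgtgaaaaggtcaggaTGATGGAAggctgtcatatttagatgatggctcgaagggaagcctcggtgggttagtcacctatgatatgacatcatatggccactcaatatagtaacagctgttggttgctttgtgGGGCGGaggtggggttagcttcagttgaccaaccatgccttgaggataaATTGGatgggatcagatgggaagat
ATF3 second entry: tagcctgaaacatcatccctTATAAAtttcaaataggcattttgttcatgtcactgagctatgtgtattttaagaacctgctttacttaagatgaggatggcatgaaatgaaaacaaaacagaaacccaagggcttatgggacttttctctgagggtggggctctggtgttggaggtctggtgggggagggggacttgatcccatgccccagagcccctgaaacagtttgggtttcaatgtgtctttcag

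The ATF/CRE palindrome that ATF3 binds was searched as TGACGTCA and its core, which it contains, as TGACG. The AP-1 site was searched as TGANTCA, and the composite element that C/EBP and ATF4 bind as TGATGNAA. The other motifs were the E box (CACGTG), the GC box (GGGCGG), the TATA box (TATAAA) and the CCAAT box (CCAAT). The upstream entry held TGATGGAA at −191, GGGCGG at −74 and ATTGG, the reverse complement of CCAAT, at −25, counted to the left end of each match from the start. The share of all 35116 RefSeq promoter entries with such a match in the same window was 3.14% for TGATGNAA, 42.6% for GGGCGG and 32.0% for CCAAT. The second entry held only TATAAA, at −230, a match found in 10.7% of entries. The letters of the other motifs were in neither window, and the share of all entries with a match was 1.65% for TGACGTCA and 21.2% for its core. It was 6.57% for TGANTCA and 6.34% for the E box. A match is not a site shown to be bound. The upstream entry had 4 CG dinucleotides and the second 0, against a median of 11 over all entries.

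Depth, recovered from the peak statistics at an assumed genome size of 2.7 Gb, came to 3.07 M (mega) reads in the VPS72 FLAG library and 4.38 M in the control one, and 17.9 to 25.03 M in the histone libraries. Neither input list had a peak in the window. Height below is the number of reads at a summit over the genome average of the same library, so it carries no scale between libraries. A region was called found in both when it had a q of 0.05 or less in either condition and a deposited peak in each. The authors' lists reach down to a p of 0.05, and such weak peaks are given as weak.

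The window was denser in H2A.Z than most of the genome. At a q of 0.05 or less, it held 7 H2A.Z regions in the VPS72 library, more than in 98.97% of 15844 windows of 180 kb, whose median was 0. These windows tile the genome and were not placed around genes. In the control it held 9, more than in 98.4% of windows, whose median was 1. Acetylated H2A.Z (H2A.Zac) had 7 regions in the VPS72 library, more than in 94.7% of windows, and 11 in the control, more than in 97.0%. H3K27ac had 2 in the VPS72 library, more than in 67.0% of windows, and 4 in the control, more than in 82.1%. H3K4me1 had 8 in the VPS72 library, more than in 72.4% of windows, whose median was 3, and 3 in the control, more than in 83.3%, whose median was 0. FLAG had 1 in the VPS72 library, where the median over windows was 1, and 4 in the control, where it was 2. For both H3K27ac and FLAG the order turned round with all deposited peaks, to 9 in the VPS72 list and 6 in the control list for H3K27ac and to 26 in the VPS72 list and 18 in the control list for FLAG. The whole lists turned round in the same way. At a q of 0.05 or less, H3K27ac had 23861 regions in the VPS72 list and 27379 in the control list, and FLAG 46307 and 68395. With all deposited peaks, H3K27ac had 76425 in the VPS72 list and 64460 in the control list, and FLAG 551907 and 184114. Joined over antibodies and conditions, the regions of the window at a q of 0.05 or less formed 23 elements. Of these, 10 passed that q in both conditions, 3 in the VPS72 condition alone and 10 in the control alone. Over the genome, of 184822 elements joined in the same way 35.3% passed that q in both conditions, 36.9% in the VPS72 condition alone and 27.8% in the control alone. The 3 of the locus that passed it in the VPS72 condition alone did so by H3K4me1 and no other mark. At 2 of them the control list had a weak H3K4me1 peak. Over the genome, H3K4me1 had 85651 regions at that q in the VPS72 library and 20108 in the control.

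**Figure D1:**
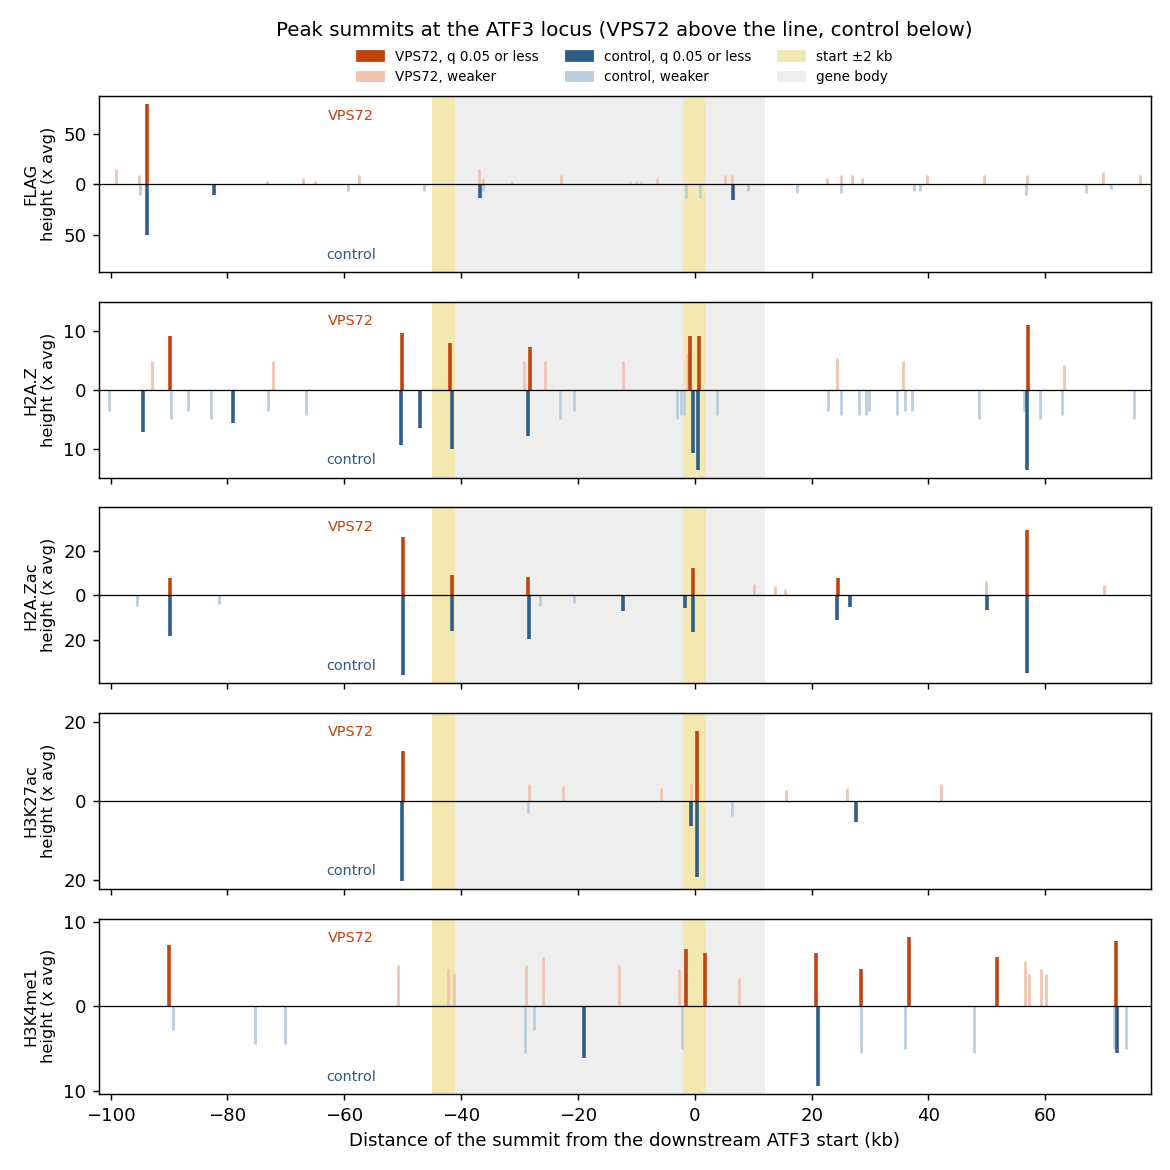
Summits of all 170 regions by distance from the downstream ATF3 start (kb), 1 panel per antibody; line length is summit height over the genome average, VPS72 above the axis and control below, with pale lines for a q above 0.05. H2A.Zac stands highest at −49.9 and 57.0 kb in both conditions, and H3K27ac at −49.9 kb and beside the downstream start.

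The downstream promoter, within 2 kb of the start near 212.782 Mb, carried H2A.Z, H2A.Zac and H3K27ac at a q of 0.05 or less in both conditions, and H3K4me1 at that q in the VPS72 condition. At that q it had 6 histone regions in the VPS72 condition and 6 in the control, and it spanned chr1:212779724-212784226. H3K27ac was highest just past the start, at chr1:212782051-212783311, with 38 reads in the VPS72 library and 36 in the control. As heights these were 17.7 (12.5 to 24.3) in the VPS72 library and 19.2 (13.5 to 26.6) in the control. The ratio, VPS72 over control, was 0.921 (0.568 to 1.496), so the heights did not differ beyond counting error. The median ratio of all 23239 H3K27ac regions found in both was 0.754, and the ratio here lay above 78.9% of them. The authors' deposited folds at the same place stood in the other order, 8.32 in the VPS72 list and 5.47 in the control list, a ratio of 1.52. The local background against which those folds were taken was 1.65 times the genome average in the VPS72 library and 3.02 times in the control. The order of the conditions at the promoter's main H3K27ac region thus differed between the measures.

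A smaller H3K27ac region lay on the other side of the start, at chr1:212781263-212781743. It had 9 reads (height 4.20) in the VPS72 library, where its q was above 0.05, and 12 reads (height 6.41) in the control, a ratio of 0.655 (0.244 to 1.69). The main H3K27ac region ranked 4218 of 76425 by q in the VPS72 list and 9823 of 64460 in the control list. Ranks in lists of different lengths show no change between conditions.

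H2A.Z sat on both sides of the downstream start as given, with a gap between. On the upstream side, at chr1:212780835-212781872, it had 15 reads (height 9.14) in the VPS72 library and 15 reads (height 10.7) in the control, a ratio of 0.852 (0.388 to 1.87). On the gene side, at chr1:212782122-212783517, it had 15 reads (height 9.14) in the VPS72 library and 19 reads (height 13.6) in the control, a ratio of 0.672 (0.318 to 1.396). Both intervals include 1. The median ratio of H2A.Z regions found in both was 0.912. The gap without an H2A.Z peak was chr1:212781869-212782126 in the VPS72 condition (258 bp) and chr1:212781873-212782121 in the control (249 bp). The rounded position of the start, 212.782 Mb, falls in both. As the start is known only to the nearest 1 kb, whether it lies in the gap itself was not determined. The H2A.Z summits on the sides of the gap were 1524 bp apart in the VPS72 library and 819 bp in the control, at 15 to 19 reads a summit. H3K27ac left a gap at the same place, of 261 bp in the VPS72 library and 322 bp in the control.

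H2A.Zac covered the start without a gap, at chr1:212780700-212783454. It had 28 reads (height 12.5, 8.33 to 18.1) in the VPS72 library and 32 reads (height 16.5, 11.3 to 23.3) in the control. The ratio was 0.760 (0.441 to 1.303), beside a median of 0.652 over all H2A.Zac regions found in both. A second H2A.Zac region, chr1:212780136-212780441, had 11 reads in the control and no deposited peak in the VPS72 list, where the same height would have been 12.7 reads and 7 would have been listed at the same local background.

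H3K4me1 had its summits outside those of the other histone marks at the downstream promoter in the VPS72 library. In the VPS72 library it formed one region before the start, chr1:212779724-212781204, with 14 reads (height 6.81), and one past it, chr1:212783493-212784226, with 13 reads (height 6.33). No H3K4me1 peak was listed in the 2288 bp between them. In the control the first had a weak peak of 9 reads (height 5.02), a ratio of 1.36 (0.547 to 3.55), beside a genome median of 1.20. These peaks overlapped by 247 bp, with summits 731 bp apart. The control list had 0 H3K4me1 peaks with a summit within 2 kb of the start, so the ratio compares neighbouring places. The second had no deposited peak in the control, where equal height would have been 11.3 reads and 7 would have been listed.

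FLAG had no peak within 2 kb of the downstream start in the VPS72 list. The control had 2 weak FLAG peaks there, of 6 reads each, with summits at −1.56 and 0.957 kb. The same height would have been 4.33 reads in the VPS72 library, and 3 would have been listed. An equal height would thus have been enough for listing. At so few reads, a lower FLAG signal in the VPS72 library cannot be told apart from counting error.

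**Figure D2:**
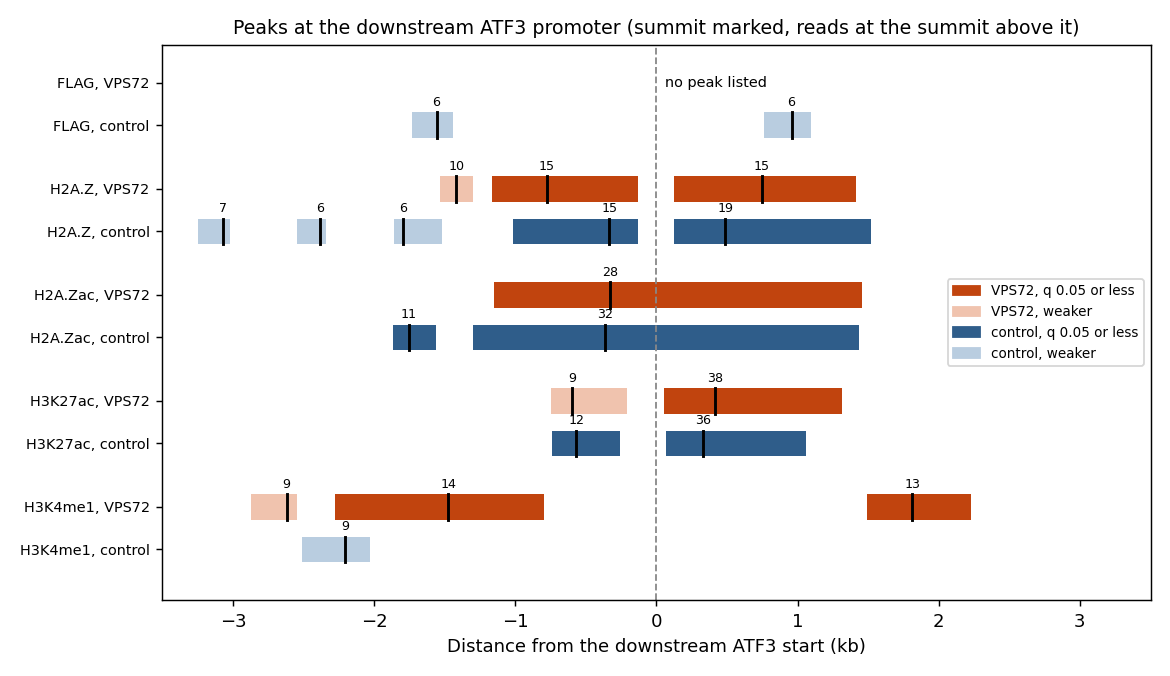
Peaks within 3.5 kb of the downstream ATF3 start (dashed line; distance in kb), 1 row per library with VPS72 above control; bars are peak extents, black marks summits, numbers the reads at the summit, and pale bars a q above 0.05. H2A.Z and H3K27ac leave a gap at the dashed line, H2A.Zac covers it, and the H3K4me1 summits of the VPS72 library lie at −1.48 and 1.81 kb.

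The upstream promoter carried H2A.Z and H2A.Zac but no H3K27ac. Its element, chr1:212739661-212740865, lay inside the gene, with the 4 summits 1.19 to 1.49 kb past the start near 212.739 Mb, so that within 1 kb of it there were 0 regions at a q of 0.05 or less. This start too is known only to the nearest 1 kb, so these distances are approximate. H2A.Z had 13 reads (height 7.92) in the VPS72 library and 14 reads (height 10.0) in the control, a ratio of 0.791 (0.342 to 1.81). H2A.Zac had 21 reads (height 9.40) in the VPS72 library and 31 reads (height 15.97) in the control, a ratio of 0.589 (0.321 to 1.06), so neither differed beyond counting error. No H3K27ac peak and no FLAG peak was listed within 2 kb of this start in either condition. H3K4me1 had 2 weak peaks of 9 and 8 reads in the VPS72 list and none in the control list. Over the whole genome, of H2A.Zac regions with H2A.Z at that q, not limited to promoters, 30.2% (29.4 to 31.1%) in the VPS72 condition and 32.0% (31.3 to 32.7%) in the control had no deposited H3K27ac peak.

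Between the starts, the gene body had 1 strong element, chr1:212752708-212754212, centred 14.5 kb past the upstream start. H2A.Zac had 19 reads there (height 8.51, 5.12 to 13.3) in the VPS72 library and 38 reads (height 19.6, 13.9 to 26.9) in the control. The ratio of 0.434 (0.237 to 0.772) lay below 1 beyond counting error, and below the ratio of all but 4.33% of H2A.Zac regions found in both. Set against the median ratio of those regions it was 0.667 (0.363 to 1.19), which includes 1. H2A.Z at the same element had 12 reads (height 7.31) in the VPS72 library and 11 reads (height 7.87) in the control, a ratio of 0.929 (0.375 to 2.32). H3K27ac was weak there, with 9 reads in the VPS72 library and 6 in the control. The other 4 elements of the gene body were found at a q of 0.05 or less in the control alone, 2 of them by FLAG, 1 by H3K4me1 and 1 by H2A.Zac.

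Ranked by q of H2A.Zac, the strongest acetylated element of the window stood before the upstream start, at chr1:212731196-212733024 and centred at −6.89 kb from it. H2A.Zac had 59 reads (height 26.4, 20.1 to 34.1) in the VPS72 library and 70 reads (height 36.1, 28.1 to 45.6) in the control, a ratio of 0.732 (0.509 to 1.05). With the genome's median H2A.Zac ratio of 0.652 set to 1, it was 1.12. H3K27ac had 27 reads (height 12.6) in the VPS72 library and 38 reads (height 20.3) in the control, a ratio of 0.620 (0.364 to 1.04). H2A.Z had 16 reads (height 9.75) in the VPS72 library and 13 reads (height 9.30) in the control, a ratio of 1.05 (0.473 to 2.37). The authors' deposited H2A.Z folds there were 5.62 in the VPS72 list and 2.92 in the control list, a ratio of 1.93, over a local background of 1.23 times the genome average in the VPS72 library and 2.72 times in the control. This element and the downstream promoter were the 2 elements with H3K27ac at a q of 0.05 or less in both conditions. No FLAG peak overlapped it in either list, and its only H3K4me1 peak was a weak one of 10 reads in the VPS72 list.

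In the downstream flank, H2A.Zac was also high at chr1:212838594-212839458, 57.0 kb past the downstream start, with no H3K27ac. It had 66 reads (height 29.5, 22.9 to 37.6) in the VPS72 library and 68 reads (height 35.0, 27.2 to 44.4) in the control, a ratio of 0.843 (0.592 to 1.20). With the genome's median ratio set to 1, it was 1.29. H2A.Z had 18 reads (height 10.97) in the VPS72 library and 19 reads (height 13.6) in the control, a ratio of 0.807 (0.399 to 1.62). The authors' deposited H2A.Z folds, 3.77 in the VPS72 list and 7.35 in the control list, gave a ratio of 0.513. Few H2A.Zac regions of that height lacked H3K27ac. Of those at least as high, 25 of 280 (8.93%, 6.12 to 12.8%) in the VPS72 condition and 49 of 930 (5.27%, 4.01 to 6.90%) in the control had no deposited H3K27ac peak. In the gene order of RefSeq, GARIN4 follows ATF3, with LINC02773, the pseudogene RFKP5 and BATF3 after it. Which of them this element lies in or near was not determined, as no annotation of hg19 was used.

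Further up, at chr1:212691260-212692569, the ratios of the marks stood on different sides of 1. H2A.Zac had 18 reads (height 8.06) in the VPS72 library and 36 reads (height 18.6) in the control, a ratio of 0.434 (0.232 to 0.785). H2A.Z had 15 reads (height 9.14) in the VPS72 library and a weak peak of 7 reads (height 5.01) in the control, a ratio of 1.82 (0.700 to 5.29), above 98.4% of the genome's H2A.Z regions. H3K4me1 had 15 reads (height 7.30) in the VPS72 library and a weak peak of 5 reads (height 2.79) in the control, a ratio of 2.62 (0.904 to 9.20). These H3K4me1 peaks overlapped by 70 bp, with summits 557 bp apart, and were no longer paired when an overlap of 0.5 of the shorter peak was asked for. Only the H2A.Zac interval leaves out 1, and its ratio set against the H2A.Zac genome median was 0.667 (0.356 to 1.21).

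The rest of the flanks held weaker regions. The upstream flank had 6 histone regions at a q of 0.05 or less in the VPS72 condition and 7 in the control, and the downstream flank 8 in the VPS72 condition and 8 in the control. Beyond the elements above, the upstream flank had 2 H2A.Z regions found in the control alone, of 8 and 9 reads. In the downstream flank H3K4me1 had 5 regions at that q in the VPS72 library, with 9 to 17 reads, and 2 in the control. The highest of these in the VPS72 library, chr1:212818359-212818780, had 17 reads (height 8.27) in the VPS72 library and a weak peak of 9 reads (height 5.02) in the control, a ratio of 1.65 (0.695 to 4.20). These peaks overlapped by 37 bp, with summits 581 bp apart, and were not paired at an overlap of 0.5 either. At chr1:212801598-212803339 H3K4me1 had 13 reads (height 6.33) in the VPS72 library and 17 reads (height 9.48) in the control, a ratio of 0.667 (0.298 to 1.46). At chr1:212809782-212810771 it had 9 reads (height 4.38) in the VPS72 library and a weak peak of 10 reads (height 5.58) in the control, a ratio of 0.785 (0.282 to 2.15). At chr1:212833413-212833890 it had 12 reads (height 5.84) in the VPS72 library and no deposited peak in the control. The intervals of these 3 ratios include 1. H2A.Zac at chr1:212806129-212807285 had 18 reads (height 8.06) in the VPS72 library and 22 reads (height 11.3; 24 reads is another solution) in the control, a ratio of 0.711 (0.359 to 1.39). At chr1:212831458-212832086 H2A.Zac had a weak peak of 14 reads in the VPS72 library and 13 reads in the control, a ratio of 0.936 (0.408 to 2.16).

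**Figure D3:**
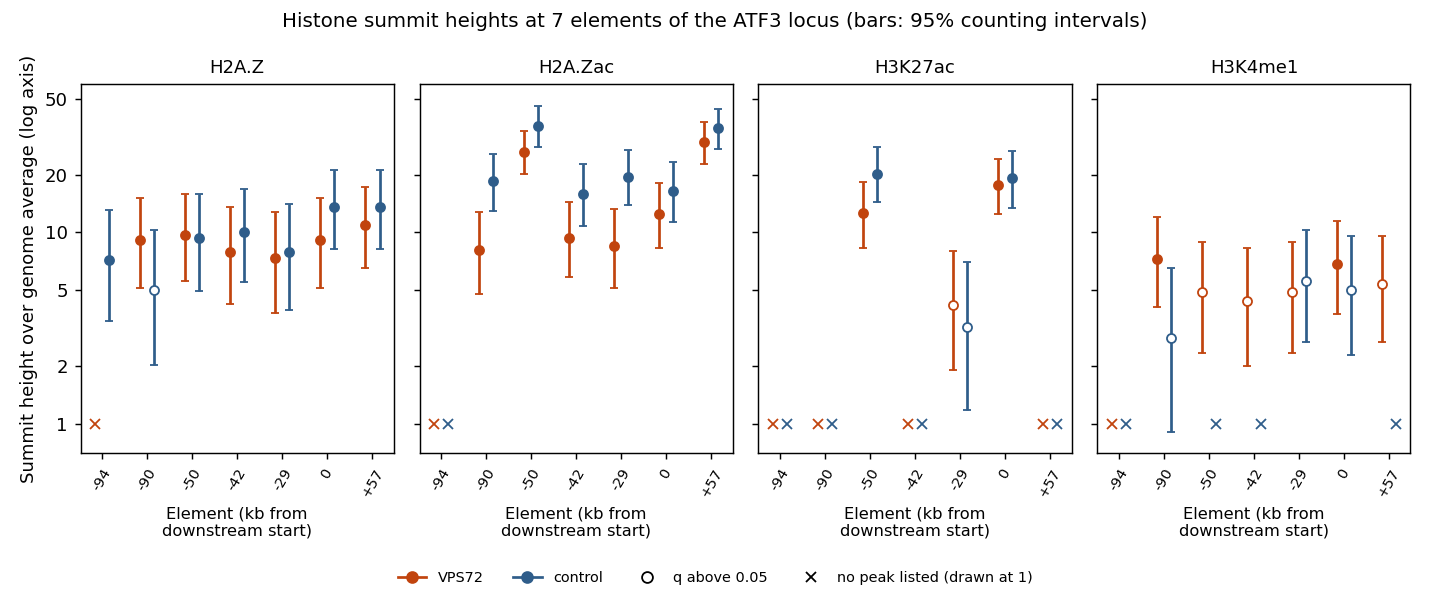
Summit heights over the genome average (log axis) of the 4 histone marks at 7 elements, named by the distance of their centre from the downstream start (kb), VPS72 left of control; bars are 95% counting intervals, open points have a q above 0.05, and crosses at 1 mark libraries with no listed peak. The H2A.Zac points of the VPS72 library lie below those of the control at each of the 6 elements where both had a peak; 5.58% of all H2A.Zac regions found in both were higher, and with the genome median ratio set to 1 the ratio was above 1 at 3 of the 6.

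FLAG was highest at chr1:212687633-212688901, in the upstream flank. It had 26 reads (height 78.9, 51.6 to 115.6) in the VPS72 library and 23 reads (height 50.4, 32.0 to 75.7) in the control. The ratio was 1.57 (0.858 to 2.87), which includes 1. The region ranked 416 of 551907 by q in the VPS72 list and 2470 of 184114 in the control list. In the VPS72 condition no histone peak overlapped it, as for 57.1% of FLAG regions at least as strong. In the control that share was 49.4%, and here an H2A.Z region of 10 reads overlapped the edge of the FLAG region. The summit of this H2A.Z region was at chr1:212687565 and the control FLAG summit at chr1:212688257. The remaining 3 FLAG regions that passed a q of 0.05 were all in the control, with 5 to 7 reads. One of these, chr1:212788164-212788737, had a weak peak of 3 reads in the VPS72 library and 7 reads in the control. Its control summit lay 49.5 kb past the upstream start of the rule, close to the 49.6 kb that separate the RefSeq entries shown above, though the builds differ and were not converted. At that region no histone mark had a q of 0.05 or less in either condition. Whether it lies at the second entry, and whether that entry acts as a promoter in these cells, was not determined.

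Across the locus, H2A.Zac was lower in the VPS72 library at 8 of the 8 regions found in both, where 5.58% of all H2A.Zac regions found in both were higher by any amount. At 3 of the 8 it was lower by 1.5-fold or more (52.6% of all) and at 0 higher by as much (0.24% of all). The median ratio was 0.722 at the locus and 0.652 over all such regions, and with the genome median set to 1 the ratio was above 1 at 5 of the 8. H3K27ac was lower at 3 of 3, where 13.6% of all were higher. It was lower by 1.5-fold or more at 2 of them (30% of all) and higher by as much at 0 (0.684% of all). H2A.Z was lower at 5 of 7 regions and higher at 2, beside 36.4% higher of all. It was higher by 1.5-fold or more at 1 (5.82% of all) and lower by as much at 0 (15% of all). H3K4me1 was higher at 4 of 6, beside 74.8% of all. It was higher by 1.5-fold or more at 2 (18.9% of all) and lower by as much at 0 (2.04% of all), with chr1:212801598-212803339 just inside that limit at 0.667. Both of those higher by 1.5-fold or more, chr1:212691260-212692565 and chr1:212818359-212818780, were the pairs lost at an overlap of 0.5 of the shorter peak. That left 0 of 4 higher by as much. The 2 lower H3K4me1 regions, at 0.667 and 0.785, were among these 4. The count of 4 of 6 higher thus rests partly on the lost pairs. FLAG was higher at 2 of 3 (42.7% of all), at 1 by 1.5-fold or more (16% of all), and lower by as much at 1 (20.4% of all).

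Some regions had a peak in 1 condition alone. Of the regions of the locus that passed a q of 0.05 in either condition, no VPS72 peak was listed at 3 of 10 for H2A.Z (34.6% over the genome), 3 of 11 for H2A.Zac (24.7%), 1 of 4 for H3K27ac (14.3%), 1 of 9 for H3K4me1 (2.34%) and 1 of 4 for FLAG (25.4%). No control peak was listed at 2 of 9 for H3K4me1 (43.3% over the genome). For the other antibodies this was 0 regions, where the genome had 4.88% for H2A.Z, 4.46% for H2A.Zac, 7.79% for H3K27ac and 14.1% for FLAG.

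**Figure D4:**
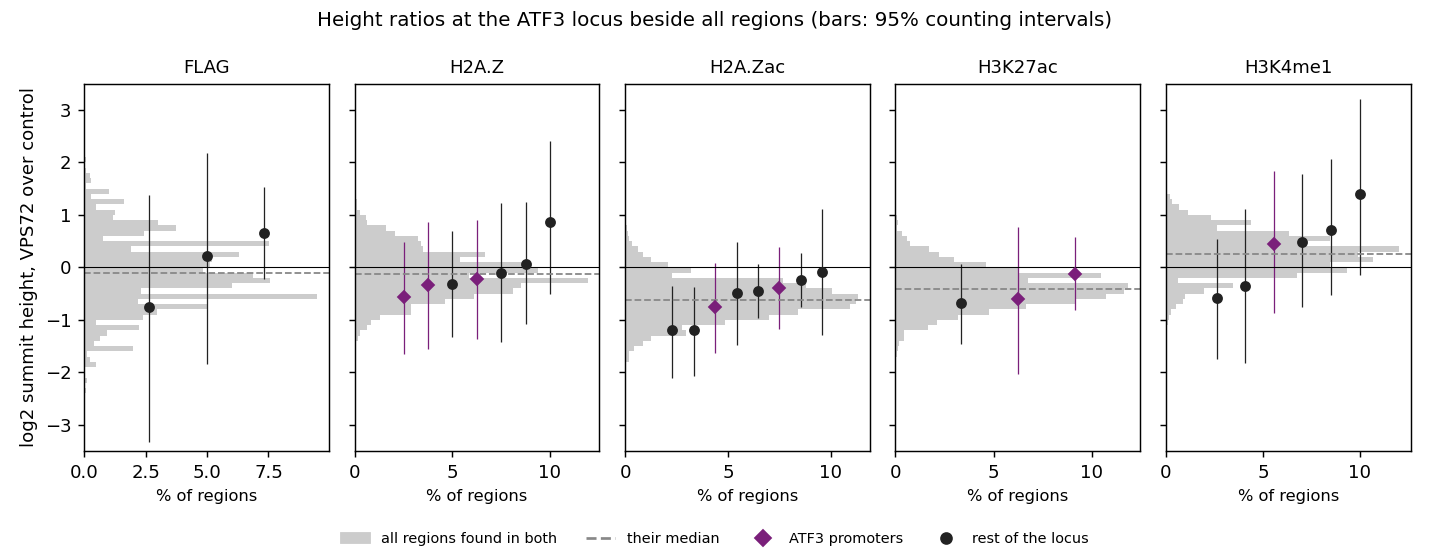
Distribution of the log2 ratio of summit height, VPS72 over control, over all regions found in both (grey, percent of regions), with its median (dashed) and the regions of the ATF3 locus (diamonds at the promoters, circles elsewhere, spread sideways by rank; bars are 95% counting intervals). The H2A.Zac median was 0.722 at the locus beside 0.652 over the genome, and the promoter points lie within the grey distributions. The H3K4me1 median was 1.38 over 6 pairs at the locus, beside 1.20 over the genome. Of the 6, the pairs at 2.62 and 1.65 are lost at an overlap of 0.5 of the shorter peak. The median of the 4 left was not computed, so 1.38 does not place the locus above the genome.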

How the data were processed

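The 10 ChIP libraries and 2 inputs were grouped by their titles. The genotype labels of the VPS72 ChIP libraries name other VPS numbers and were read as VPS72, and the peak names of the control H3K4me1 list spell another mark, where the title was followed. Peaks were called with MACS2, and FastQC, Trimmomatic and BWA are named too, without versions, per the submitters' processing notes. The notes name hg19 and hg38, and coordinates are given as hg19, 1-based. Which library served as the control for calling, and at which threshold, is not given in the sources used here.

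As deposited, the fold of each peak is the authors' ratio of summit to local background, p and q are deposited as −log10 values, the authors' integer score was not used, and the deposited summit offset is a position. The number of reads at a summit was recovered from fold and p together, under the Poisson model of MACS2, to a tolerance of 0.002, for 170 of 170 regions, 163 with a single solution. The 2 with a q of 0.05 or less and another solution were in control lists (FLAG 5 or 4 reads, H2A.Zac 22 or 24 reads). Recovery and overlap were tested on simulated data. Promoters were taken as 2 kb either side of each start, and the gene body as ending 12 kb past the downstream start. Peaks were joined at 1 bp of overlap. Values are given for both promoters and for the 5 other elements with the highest −log10 q. Ratio intervals are exact (Clopper-Pearson), height intervals exact Poisson, and intervals of shares Wilson. No gene with a like pattern and no pathway list is given, as no hg19 annotation was used. The members and lists were chosen with earlier results of these data known. Alternatives were the limit on q, the promoter width, the measure, the overlap, the scale and the rank. Calculations used SciPy 1.17.1, pandas 2.3.3 and NumPy 2.4.6 in Python 3.11.15, and figures Matplotlib 3.10.9.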

Additional observations from a re-analysis of the deposited data

How the results depend on the processing

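With all deposited peaks in place of a q of 0.05 or less, FLAG had 26 regions in the VPS72 list and 18 in the control list, H2A.Z 16 in the VPS72 list and 34 in the control list, H2A.Zac 12 in the VPS72 list, H3K27ac 9 in the VPS72 list, and H3K4me1 20 in the VPS72 list and 14 in the control list. At a q of 1e-05 or less, H2A.Z had 2 regions in the VPS72 list and 3 in the control list. At that limit both lists had the same count for FLAG (1), H2A.Zac (7), H3K27ac (2) and H3K4me1 (0). The order of the conditions for FLAG and H3K27ac counts thus turned round with all deposited peaks, and the counts were equal at the strict limit. The order of the whole FLAG and H3K27ac lists turned round too. For H2A.Z with all deposited peaks, the median over windows of 180 kb was 3 in the VPS72 list and 9 in the control list. With promoters within 1 kb, the upstream promoter had 0 histone regions in both conditions, and the gene body 6 in the VPS72 condition and 7 in the control. The upstream summits lie over 1 kb past the start as given. A width of 5 kb changed no count by over 1.5 times. With the deposited fold, the ratio of the main H3K27ac region was 1.52, on the other side of 1. With the genome median ratio set to 1, H2A.Zac ratios were 1.12 at the element before the upstream start and 1.29 at that in the downstream flank. Every other ratio, under these settings or an overlap of at least 0.5 of the shorter peak, stayed within its main interval. These intervals are wide, so this is a weak check, and some ratios crossed 1 inside them. With the genome median set to 1, H2A.Zac over the downstream start went from 0.760 to 1.17, and the main H3K27ac region from 0.921 to 1.22. With the deposited fold, H2A.Z at the element before the upstream start went from 1.05 to 1.93. The H3K4me1 pairs at chr1:212691260-212692565 and chr1:212818359-212818780 were lost under the stricter overlap, which left 0 of 4 H3K4me1 regions higher by 1.5-fold or more. Ranked by fold, promoter regions stood in the top 10.2% (upstream, VPS72) and 2.96% (upstream, control) for H2A.Z; 15.6% (upstream, VPS72), 14.1% (downstream, VPS72) and 17.4% (downstream, control) for H2A.Zac; 6.68% (VPS72) and 21.5% (control) for H3K27ac; and 31.3% (VPS72) for H3K4me1. No paired analysis was possible because each group was 1 library. Depth limits what can be seen: promoter summits rest on 6 to 38 reads, the FLAG libraries are the shallowest, and no scale between libraries was analysed here.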

Other observations

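Weak peaks, with a q above 0.05, made up most of the FLAG list at the ATF3 locus, and most of the whole FLAG lists too. Over the genome, 46307 of 551907 FLAG regions in the VPS72 list and 68395 of 184114 in the control list had a q of 0.05 or less. The VPS72 FLAG list held 26 regions in the window and the control list 18, and the median over windows of 180 kb was 35 in the VPS72 list and 7 in the control list. In the VPS72 list 6 of the 26 had 1 read at the summit, and in the control list 0 of the 18. The share of such peaks in the whole lists is not given here. Local background over the 170 regions had medians of 1.13 to 1.79 times the genome average in the VPS72 libraries and 1.15 to 1.86 times in the control libraries. For H3K4me1 the median was 1.57 in the VPS72 library, beside 1.11 over its whole list, and 1.15 in the control, beside 1.16. For FLAG it was 1.79 in the VPS72 library, beside 1 over its whole list, and 1.86 in the control, beside 1.82. The part of local background in the H3K4me1 values was not tested.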
